A study of Homo sapiens with 6 samples.

Results

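The 10 genes described here detect double-stranded RNA, pass on its signal or act on it: DDX58, IFIH1, DHX58, TLR3, MAVS, TICAM1, TBK1, IKBKE, EIF2AK2 and ADAR. They were taken by symbol from the 58302 gene rows of the deposited table, where all 10 were found and all 10 passed the low-count filter that left 15631 genes. Transcripts were counted by RNA sequencing of A549, a human lung adenocarcinoma cell line at passages 6 to 8, transfected with SNHG5 (3 libraries, called overexpression 1 to 3) or with vector alone (control 1 to 3). SNHG5 is the small nucleolar RNA host gene 5, a long non-coding RNA. The labels speak of biological replicates and do not name the vector, its promoter or whether the cells were a clone. The set was selected on the counts of the overexpression and control libraries themselves. In these the receptors were lower, while 1 adaptor and 1 kinase were fitted lower and 1 of each higher. The differences between the groups below are therefore a description, and no test of them is offered as support.

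Double-stranded RNA is made by many viruses as they copy their genomes, and cells read it in separate compartments. In the cytosol RIG-I (encoded by DDX58) and MDA5 (IFIH1) bind it and engage MAVS on mitochondria, while in endosomes TLR3 binds it and engages TRIF (TICAM1). Both routes reach the kinases TBK1 and IKK epsilon (IKBKE), which activate interferon regulatory factors and so switch on interferon genes. Interferon in turn raises the transcription of several receptors, which makes them inducible sensors, while the adaptors are made at a steadier level. PKR (EIF2AK2) halts translation when it binds double-stranded RNA, and ADAR edits adenosines in such RNA to inosine, which weakens its recognition as foreign.

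The libraries held 13378079 to 16999604 counts. SNHG5 itself stood at 153, 127 and 62.9 CPM (counts scaled to a common library total with TMM factors) in overexpression 1, 2 and 3, against 61.0, 101 and 55.1 CPM in control 1, 2 and 3. The groups overlapped, since overexpression 3 lay below control 2, and the exact two-sided permutation p was 0.20, where 0.10 is the smallest that 3 libraries against 3 can give. Ribosomal RNA genes took 1.04% to 1.14% of the counts in the overexpression libraries and 0.800% to 0.852% in the controls, so this share moved with the groups. In control 2 the nuclear RNA MALAT1 was at 28.1 CPM, against 118 to 476 CPM in the other libraries. Chi-square per degree of freedom was 26.2 between overexpression 1 and 2 and 28.1 between control 1 and 3, but 85.9 to 94.5 in the pairs within a group that include overexpression 3 or control 2, so these 2 libraries stood apart from their groups. Overexpression 3 was nearer to control 3 (41.3) and control 1 (54.8) than to overexpression 1 (94.2) and overexpression 2 (85.9). The parts of these measures in the results below were not tested. All 7 epithelial and A549 markers were counted in every library (summed 3403 to 5845 CPM in the overexpression libraries and 5154 to 8489 CPM in the controls). Most of this sum came from KRT8, KRT18 and AKR1B10, while EPCAM held 2.27 to 4.19 CPM and CDH1 7.89 to 33.6 CPM. CDKN2A, which A549 is known to have lost, was at 0.123 to 0.459 CPM, and the leukocyte genes PTPRC, CD3E and LYZ were at 0 counts in all libraries, with the summed leukocyte list at 0 to 1.86 CPM in the overexpression group and 0.466 to 1.77 CPM in the control group. The fibroblast list summed to 4.92 to 21.0 and 10.2 to 20.2 CPM.

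Interferon-activated factors can bind the sequence just upstream of a gene. The promoter windows were looked at because the 4 receptors had the largest differences of the 10 genes, but any part of a motif in these differences was not tested. RefSeq windows of 300 bases (GRCh38.p14, 250 bases before the annotated start and 50 after) were matched for 9 of the 10 genes, with 3 windows for ADAR, and DHX58 had no entry. They were searched on both strands for the interferon-stimulated response element, written as GAAA, any 2 bases and GAAAC. They were also searched for its 10-letter core, which lacks the last C and so overlaps every match of the longer motif, and, added after the sequences were seen, for GAAA and GAAAC with 1 base between them. The first 270 bases of each window, ending 20 bases after the start, are shown, at chr2:162318665-162318934 (IFIH1, minus strand), chr2:37156961-37157230 (EIF2AK2, minus strand), chr4:186068906-186069175 (TLR3, plus strand), chr9:32526177-32526446 (DDX58, minus strand) and chr12:64451870-64452139 (TBK1, plus strand). Capitals mark the matches to any of these 3 motifs, each window runs 5′ to 3′ along its gene, and TBK1 stands as a window with no match. The RefSeq starts can differ from the deposited gene coordinates, and no windows at other annotated starts of the genes shown were searched. The deposited TBK1 gene begins at 64451880, so nearly all of its window lies inside it. For DDX58 and EIF2AK2 the RefSeq start also lies inside the deposited gene, whose 5′ ends are at 32526324 and 37157065.
IFIH1: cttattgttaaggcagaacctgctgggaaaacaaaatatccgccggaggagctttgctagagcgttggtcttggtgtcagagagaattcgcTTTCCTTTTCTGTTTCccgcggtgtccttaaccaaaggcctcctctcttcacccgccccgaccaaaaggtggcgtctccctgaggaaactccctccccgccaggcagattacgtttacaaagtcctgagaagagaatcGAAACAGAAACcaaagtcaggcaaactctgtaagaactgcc
EIF2AK2: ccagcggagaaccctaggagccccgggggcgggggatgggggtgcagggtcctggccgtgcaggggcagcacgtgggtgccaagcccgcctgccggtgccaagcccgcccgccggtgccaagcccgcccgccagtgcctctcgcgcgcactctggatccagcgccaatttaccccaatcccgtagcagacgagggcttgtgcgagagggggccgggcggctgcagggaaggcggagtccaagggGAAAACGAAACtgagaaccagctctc
TLR3: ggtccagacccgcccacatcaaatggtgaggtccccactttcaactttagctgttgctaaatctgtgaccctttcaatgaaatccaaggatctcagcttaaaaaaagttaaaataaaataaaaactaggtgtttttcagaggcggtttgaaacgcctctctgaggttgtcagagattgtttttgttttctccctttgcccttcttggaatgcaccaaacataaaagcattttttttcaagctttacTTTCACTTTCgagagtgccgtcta
DDX58: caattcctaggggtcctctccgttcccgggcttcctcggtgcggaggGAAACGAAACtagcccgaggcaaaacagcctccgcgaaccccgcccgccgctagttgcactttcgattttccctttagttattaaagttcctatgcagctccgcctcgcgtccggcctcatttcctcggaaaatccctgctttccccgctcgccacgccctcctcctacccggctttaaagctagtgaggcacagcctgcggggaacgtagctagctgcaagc
TBK1: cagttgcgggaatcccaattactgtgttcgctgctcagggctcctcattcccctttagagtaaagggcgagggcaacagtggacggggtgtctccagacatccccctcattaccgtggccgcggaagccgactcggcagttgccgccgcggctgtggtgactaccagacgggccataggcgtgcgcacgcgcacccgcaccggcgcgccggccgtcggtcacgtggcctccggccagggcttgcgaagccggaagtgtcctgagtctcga

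The 11-letter motif was in 2 of the 9 genes' windows, IFIH1 and EIF2AK2, and in 0.795% of all 35116 windows. Counted from the annotated start to the first base of the match, it began at position -21 in IFIH1 and at -6 in EIF2AK2. The 10-letter core was also in the TLR3 window, on the other strand from position -4, and IFIH1 held it at 2 further places that overlap each other, from -159 and -153. That core was in 3.57% of all windows. The form with 1 base between the repeats was in the DDX58 window from position -203 and in 0.498% of all windows. Nothing is read from that share, because this form was added after the sequences were seen. None of the 3 forms was in the windows of MAVS, TICAM1, TBK1 or IKBKE, nor in the 3 windows of ADAR. ADAR windows 1 and 2 overlap (chr1:154627948-154628247 and chr1:154627922-154628221), and the gene has 23 annotated starts. Whether a window covers the start of its interferon-inducible form was not determined. A second motif, GGGA, any base and TTTCC, which the NF-kappaB factors bind, was in the windows of DDX58 (from -76), IFIH1 (from -76) and TICAM1 (from -120) and in 0.558% of all windows. The gamma-activated motif TTCNNNGAA was in the TLR3 window alone among the 9 genes, from -178 and -50, and in 7.66% of all windows. These are matches of letters, and no binding was measured.

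Among the cytosolic receptors, DDX58 (ENSG00000107201, chr9:32455705-32526324, minus strand), which encodes the RIG-I helicase that binds the ends of short double-stranded RNA, held 341, 232 and 452 CPM in overexpression 1, 2 and 3. The controls held 1178, 463 and 1521 CPM. Controls 1 and 3 were far above the overexpression libraries, but control 2 lay only just above overexpression 3, so the groups were separated by a narrow gap. In bulk RNA, fewer cells that express a gene and less of its RNA per cell cannot be told apart. The means were 342 ± 110.1 against 1054 ± 540 CPM (SD, n = 3 each), 3.08-fold lower, with a log2 fold change of -1.62 (SE 0.45). The log2 fold change ran from -1.98 without control 2 to -1.27 without control 3, and was -2.24 without both overexpression 3 and control 2.

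IFIH1 (ENSG00000115267, chr2:162267079-162318703, minus strand) encodes MDA5, which coats long double-stranded RNA. It held 62.7, 38.1 and 97.0 CPM in the overexpression libraries, against 258, 254 and 349 CPM in the controls. Every control lay above every overexpression library by more than the range within either group. The means were 65.9 ± 29.6 against 287 ± 53.4 CPM (SD, n = 3 each), and the log2 fold change was -2.12 (SE 0.35), or 4.35-fold lower.

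DHX58 (ENSG00000108771, chr17:42101404-42112733, minus strand) encodes LGP2, a helicase without the signalling domain of its relatives that modulates them. It was the least abundant, with 15, 9 and 61 counts in the overexpression libraries (0.910, 0.655 and 3.55 CPM), against 161, 214 and 261 counts in the controls (10.7, 14.0 and 16.1 CPM). Overexpression 3 held several times the level of the other overexpression libraries and still lay below every control. The means were 1.71 ± 1.6 against 13.6 ± 2.70 CPM (SD, n = 3 each), 7.85-fold lower (log2 fold change -2.97, SE 0.60). Without overexpression 3 the log2 fold change was -4.10, a fold that differs by over 1.5 times from that of all libraries.

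The endosomal receptor gene TLR3 (ENSG00000164342, chr4:186069152-186088069, plus strand) held 4.07, 2.26 and 8.96 CPM in the overexpression libraries, from 67, 31 and 154 counts. The controls held 28.3, 40.1 and 51.5 CPM, from 425, 612 and 836 counts, and the gap between overexpression 3 and the lowest control was wider than that between neighbouring controls. The means were 5.10 ± 3.47 against 40.0 ± 11.6 CPM (SD, n = 3 each), 7.79-fold lower (log2 fold change -2.96, SE 0.50). Without overexpression 3 the log2 fold change was -3.65, again a fold that differs by over 1.5 times. DHX58 and TLR3 thus had nearly equal log2 differences, on different levels.

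**Figure D1:**
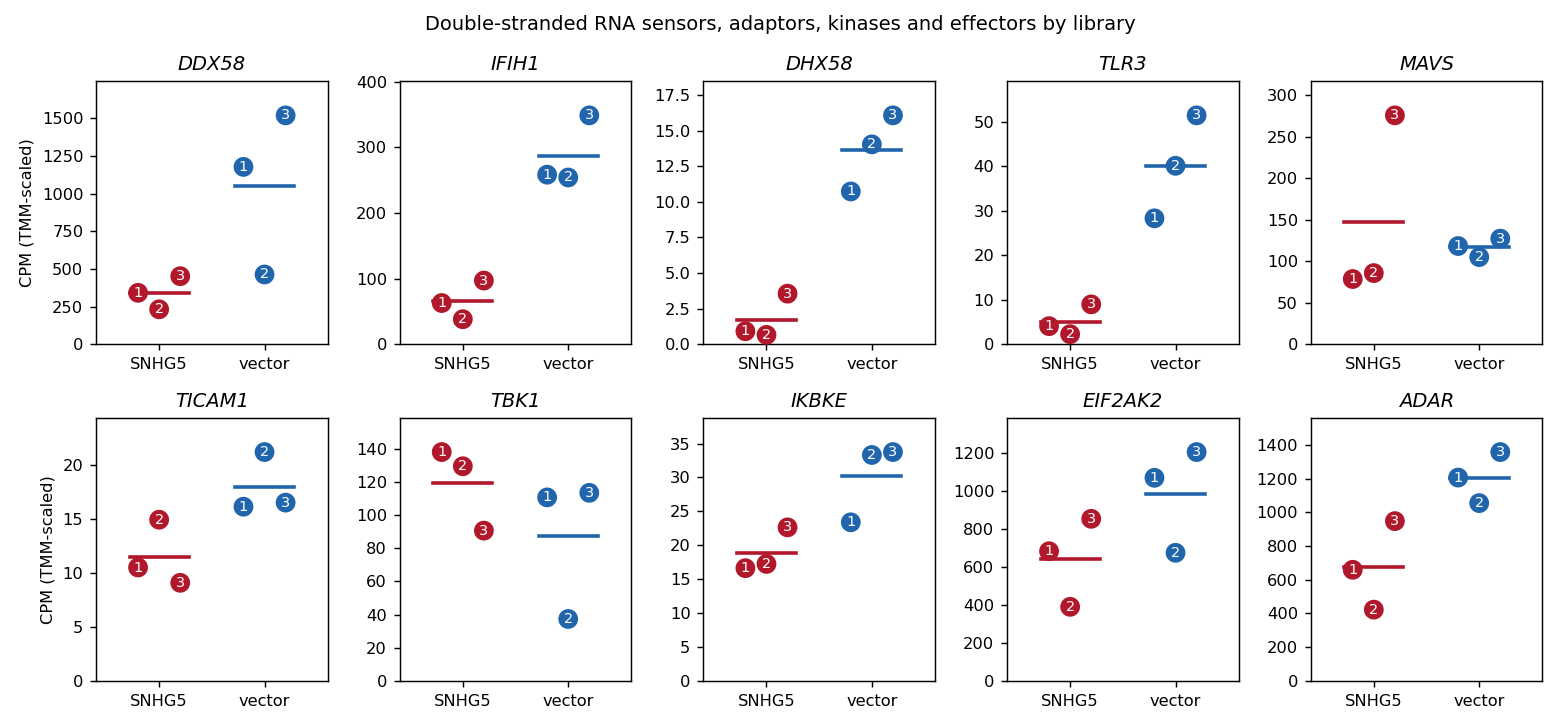
CPM of each of the 10 genes (vertical axis from 0, a scale of its own in each panel) in the 3 SNHG5 overexpression libraries (red) and the 3 vector controls (blue); the digit is the replicate number and the line the group mean. The receptors DDX58, IFIH1, DHX58 and TLR3 are lower in all overexpression libraries, MAVS is high in overexpression 3 alone (276 CPM) and TBK1 low in control 2 alone (37.4 CPM).

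Of the adaptors, MAVS overlapped between the groups and TICAM1 did not. MAVS (ENSG00000088888, chr20:3846799-3876123, plus strand), the mitochondrial adaptor of RIG-I and MDA5, held 78.6, 85.7 and 276 CPM in the overexpression libraries, against 118, 105 and 127 CPM in the controls. Overexpression 3 held more than any other library, while overexpression 1 and 2 lay below every control. The log2 fold change was 0.33 (SE 0.47) with all libraries and -0.51 without overexpression 3, so 1 library set its direction. TICAM1 (ENSG00000127666, chr19:4815932-4831704, minus strand), the TRIF adaptor of TLR3, held 10.5, 14.9 and 9.08 CPM against 16.1, 21.2 and 16.5 CPM in the controls. The groups did not overlap, but overexpression 2 lay close under control 1. The log2 fold change of TICAM1 was -0.64 (SE 0.27), or 1.56-fold lower.

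The kinases are close relatives, of which TBK1 is made in most cells and IKBKE is known as the inducible form. TBK1 (ENSG00000183735, chr12:64451880-64502108, plus strand) held 138, 130 and 90.7 CPM in the overexpression libraries, against 111, 37.4 and 114 CPM in the controls. The groups overlapped, and control 2 held less than any other library. The log2 fold change of TBK1 was 0.45 (SE 0.41), and 0.09 without control 2. IKBKE (ENSG00000263528, chr1:206470476-206496889, plus strand) held 16.6, 17.3 and 22.6 CPM against 23.4, 33.3 and 33.7 CPM in the controls, with overexpression 3 just under control 1. The log2 fold change of IKBKE was -0.68 (SE 0.24), or 1.6-fold lower. Each kinase gene shares exon positions with an annotated antisense gene on the opposite strand, AC135279.3 at TBK1 and C1orf147 at IKBKE, and the library kit does not mark strand, so reads of the partners cannot be told apart from theirs.

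The effector and the editing enzyme were abundant in both groups. EIF2AK2 (ENSG00000055332, chr2:37099210-37157065, minus strand), which encodes PKR, held 683, 390.3 and 854 CPM in the overexpression libraries, against 1070, 675 and 1205 CPM in the controls. Control 2 lay below overexpression 1 and 3, so the groups overlapped, with a log2 fold change of -0.61 (SE 0.34). Its exons overlap GPATCH11 and the pseudogene AC007899.1 on the opposite strand. ADAR (ENSG00000160710, chr1:154582062-154627999, minus strand) held 659, 423 and 948 CPM against 1206, 1054.5 and 1357 CPM in the controls. The ADAR groups did not overlap, and the log2 fold change was -0.83 (SE 0.31), or 1.78-fold lower. ADAR makes a long, interferon-inducible protein and a short, constitutive one from different starts, and with 23 annotated transcripts counted as 1 gene the deposited counts do not separate them.

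**Figure D2:**
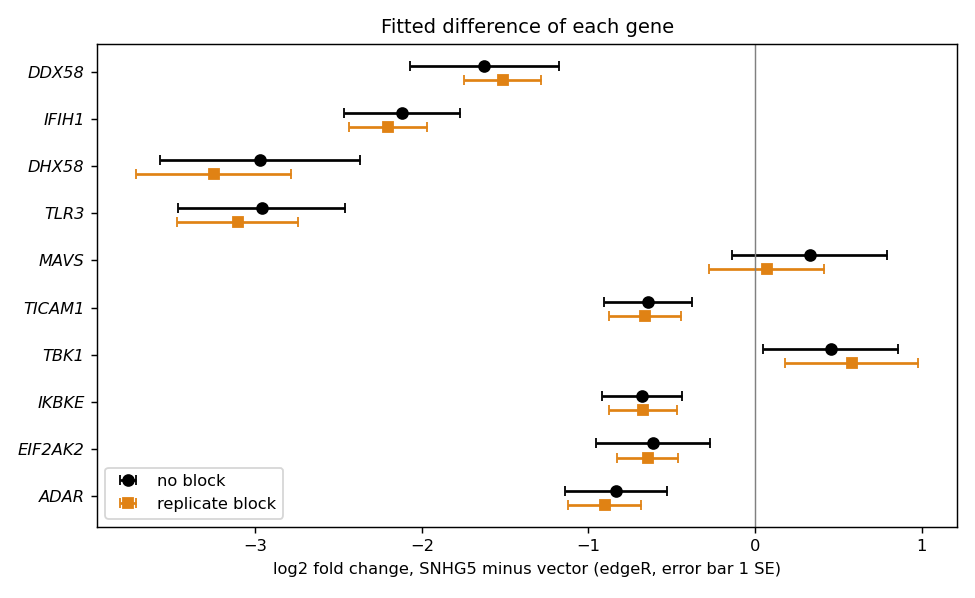
Fitted log2 fold change of each gene (horizontal axis, overexpression minus control, edgeR) with 1 SE, without (circles) and with (squares) the replicate number as a block. The 4 receptors lie between -2.97 and -1.62 without the block, ADAR, IKBKE, TICAM1 and EIF2AK2 between -0.83 and -0.61, and MAVS and TBK1 above 0.

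Counted over the 10 genes, 4 had a fitted level at least 2-fold lower (DDX58, IFIH1, DHX58 and TLR3), a size reached by 3.03% of all genes tested. All overexpression libraries lay below all controls for 7 of the 10 (these 4, TICAM1, IKBKE and ADAR), against 7.52% of all genes, and the reverse held for 0 of the 10, against 6.04%. The median log2 fold change was -0.76 over the 10 genes and 0.01 over all genes tested. edgeR's quasi-likelihood test with Benjamini-Hochberg adjustment over all genes called 0 of the 10 as lower (0.102% of all genes) and 0 as higher (0.0256%), while 7 were lower and 0 higher at an unadjusted p under 0.05 (4.41% and 2.09% of all genes). With the replicate number as a block, edgeR called IFIH1 and TLR3 as lower (0.441% of all genes) and 0 as higher (0.0256%). DESeq2 called the 4 receptors as lower (1.32%) and 0 as higher (0.121%), and limma-voom called 0 as lower (0.122%) and 0 as higher (0.0256%). Nothing is read from these shares, because the genes were chosen with this contrast known. Without overexpression 3 and control 2, a setting chosen after the data were seen, edgeR called the 4 receptors as lower (2.46% of all genes). Overexpression 3 was the highest of its group for all 4 receptors and control 2 the lowest of its group for DDX58 and IFIH1, so the removal itself widens these differences.

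By replicate pair, the log2 CPM difference of overexpression minus control was negative in 3 of 3 pairs for DDX58, IFIH1, DHX58, TLR3, TICAM1, IKBKE, EIF2AK2 and ADAR. Such a sign in all 3 pairs was found for 17.7% of all genes tested. For all of these genes but EIF2AK2 the groups did not overlap, so this sign would follow under any pairing. TLR3 had differences of -2.76, -4.08 and -2.50 in pairs 1, 2 and 3, and DHX58 had -3.39, -4.18 and -2.14. Pair 2 was the widest for both, and for IFIH1 (-2.04, -2.73 and -1.85) and ADAR (-0.87, -1.32 and -0.52) as well. DDX58 went the other way, with its narrowest difference in pair 2 (-1.79, -1.0 and -1.75). MAVS differed by -0.59, -0.29 and 1.11, and TBK1 by 0.32, 1.79 and -0.32, so neither kept a sign.

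The spread within the groups had an order shared by several of the genes. In the overexpression group, overexpression 3 was the highest library for 8 of the 10 genes, all but TICAM1 and TBK1, and overexpression 2 was the lowest for DDX58, IFIH1, DHX58, TLR3, EIF2AK2 and ADAR. Among the controls, control 3 was the highest for 9 of the 10 genes, and control 2 was the lowest for DDX58, IFIH1, MAVS, TBK1, EIF2AK2 and ADAR. The receptors DHX58 and TLR3 were instead lowest in control 1, so control 2 was low in some genes and not in others. The coefficient of variation within the controls ran from 9.60% for MAVS to 51.2% for DDX58. Within the overexpression libraries it ran from 17.6% for IKBKE to 94.0% for DHX58.

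Levels between genes were compared per length, with the FPKM values that the authors deposited (counts scaled by gene length and library total). In the controls the order was DDX58 at 227 ± 111 FPKM, ADAR at 76.0 ± 6.80, EIF2AK2 at 67.6 ± 16.7, IFIH1 at 49.6 ± 7.90, TBK1 at 13.9 ± 6.56, IKBKE at 6.36 ± 1.33, MAVS at 5.16 ± 0.301, TICAM1 at 4.10 ± 0.819, TLR3 at 3.72 ± 1.04 and DHX58 at 2.32 ± 0.458 FPKM (SD, n = 3 each). The control ranges of DDX58 and ADAR did not overlap, nor did those of IFIH1 and TBK1, while each other pair of neighbours in this order overlapped. RIG-I mRNA was thus the most abundant of the 10 and LGP2 mRNA the least. The length behind the FPKM was 1.03 times the union of annotated exons for DDX58 and 1.89 times for MAVS, so FPKM understates MAVS more. With the union of exons as length, MAVS (9.75 ± 0.569) moved above IKBKE (7.85 ± 1.64) in the controls, and all other ranks there stayed.

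In the overexpression libraries DDX58 was again the highest (76.9 ± 24.9 FPKM) and DHX58 the lowest (0.30 ± 0.284 FPKM). By their means IFIH1 and TBK1 changed places, as did ADAR and EIF2AK2, and IKBKE and MAVS. With the union of exons as length, the exchange of IFIH1 and TBK1 was there as well, but ADAR stood above EIF2AK2 and MAVS above IKBKE in both groups. The MAVS mean in the overexpression group rested on overexpression 3, at 12.7 FPKM against 3.50 and 3.96 FPKM. In the controls IFIH1 held 44.1, 46.1 and 58.7 FPKM against 17.6, 6.31 and 17.8 FPKM of TBK1. In overexpression 1 and 2 TBK1 was above IFIH1, at 22.4 and 21.8 against 11 and 6.89 FPKM, and in overexpression 3 it was slightly below, at 15.2 against 17.5 FPKM. The FPKM ratio of IFIH1 to DHX58 was 70.2, 59.2 and 27.8 in the overexpression libraries and 24.5, 18.4 and 22.1 in the controls, so the receptors were unequally lower. The ratio of TBK1 to IKBKE was 6.36, 5.75 and 3.07 in the overexpression libraries and 3.63, 0.859 and 2.58 in the controls, with overlap at overexpression 3 and control 1.

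**Figure D3:**
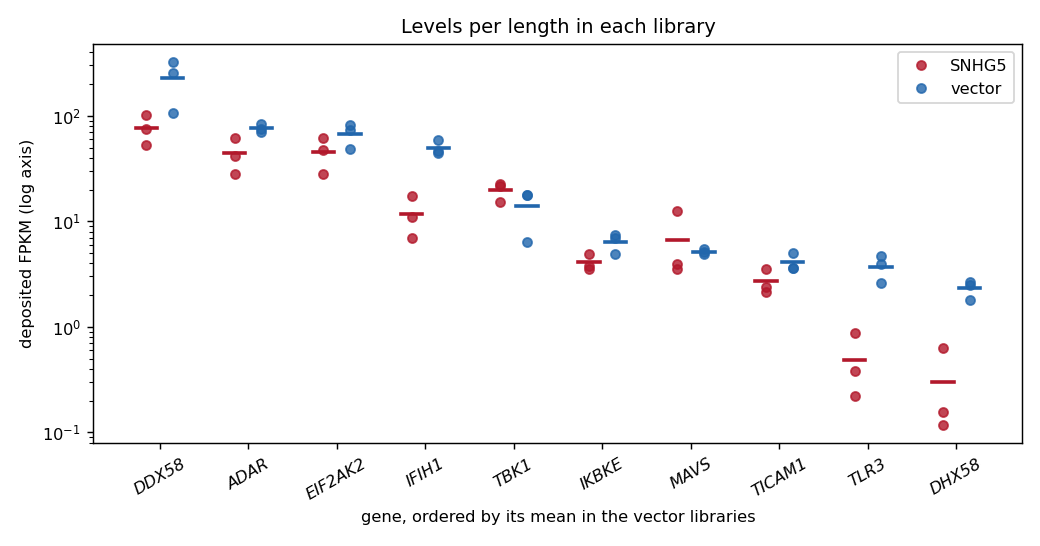
Deposited FPKM (vertical log axis) of the 10 genes in every overexpression (SNHG5, red) and control (vector, blue) library, with group means as lines and genes ordered by their control mean. DDX58 is the highest and DHX58 the lowest gene in both groups, and IFIH1 stands above TBK1 in all controls and, in the other group, in overexpression 3 alone.

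For each gene the 3 other genes with the most similar profile over the 6 libraries were taken, by the root mean square difference of mean-centred log2 CPM, out of 10933 candidates. IFIH1 was nearest to HERC5 (0.096), EPSTI1 (0.145) and SAMHD1 (0.147), where IFIH1 itself departed from its mean by 1.18. DHX58 and TLR3 shared all 3 neighbours, UBA7 (0.119 and 0.164), THEMIS2 (0.248 and 0.222) and MX2 (0.269 and 0.191). DDX58, with its low value in control 2, was nearest to SAMD9L (0.163), PARP14 (0.164) and RNF213 (0.230). ADAR was nearest to LAYN (0.0895), RRBP1 (0.105) and TRIM25 (0.112), and EIF2AK2 to TCF4 (0.106), HDAC6 (0.134) and BCL2L2-PABPN1 (0.146). The profile of TBK1, low in control 2, was shared by VPS13C (0.0549) and THOC2 (0.0819). The profile of MAVS, high in overexpression 3, was shared by TRIM16L (0.114), PADI2 (0.139) and SPC24 (0.172). TICAM1 was nearest to ZFHX3 (0.107), MSC (0.133) and RALY (0.134), and IKBKE to FBXL7 (0.0438), SLC25A39 (0.103) and C5orf15 (0.105). With so many candidates near neighbours arise easily, and these distances describe these libraries alone.

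**Figure D4:**
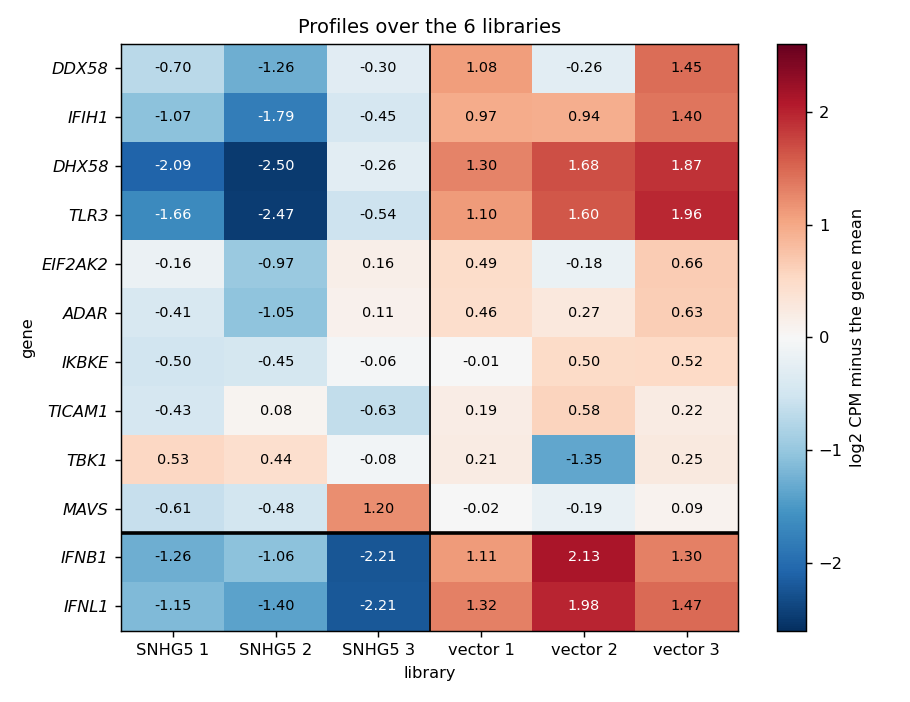
Log2 CPM minus the gene's mean over the 6 libraries (colour and printed value) for the 10 genes and, under the line, the interferon genes IFNB1 and IFNL1, in the overexpression (SNHG5) and control (vector) libraries. The receptors are at their overexpression-group highest in overexpression 3, where IFNB1 and IFNL1 are at their lowest (-2.21 each, from 14 and 29 counts).

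Other genes of the pathway were read from 9 lists with 89 genes, of which 80 were tested. The lists were drawn up by function with earlier results of these data known, so they are no independent evidence of direction. In edgeR 1 of the 80 was lower (background 0.102%) and 0 were higher (0.0256%), and with the replicate block 4 were lower (0.441%) and 0 higher (0.0256%). At an unadjusted p under 0.05, 21 were lower (4.41%) and 2 higher (2.09%), and the median log2 fold change was -0.12. DESeq2 called 9 as lower (1.32%) and 0 as higher, and limma-voom 1 as lower and 0 as higher.

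The interferon and chemokine outputs were the list with the most calls. IFNL1, which encodes a type III interferon, averaged 2.80 ± 1.00 CPM with SNHG5 and 25.6 ± 6.42 CPM with vector (SD, n = 3 each) and fell by 3.19 on the log2 scale (SE 0.36, edgeR adjusted p 0.0291). The call was lost without overexpression 1 (adjusted p 0.149), overexpression 2 (0.136), control 2 (0.129) or control 3 (0.129). IFNB1, which encodes interferon beta, held 1.70, 1.97 and 0.815 CPM against 9.33, 19.0 and 10.7 CPM (log2 fold change -3.13, edgeR adjusted p 0.0667, and 0.0312 with the block), and its log2 fold change was -2.45 without both overexpression 3 and control 2. CXCL10, an interferon-induced chemokine, had a log2 fold change of -3.31 (edgeR adjusted p 0.0869, and 0.0333 with the block). All 6 genes of the list were lower in every overexpression library than in any control, against 7.52% of all genes, and over all 80 tested pathway genes 24 were so, while 6 were higher in every overexpression library (6.04% of all genes).

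Of the 7 transcription factors, IRF1, an interferon-induced regulator, had a log2 fold change of -1.75 (edgeR adjusted p 0.0668, and 0.0362 with the block). IRF7, the inducible amplifier of interferon transcription, held 26.8, 30.3 and 70.8 CPM against 184, 226 and 160.2 CPM (log2 fold change -2.16, SE 0.39, edgeR adjusted p 0.115), and without overexpression 3 the log2 fold change was -2.74. IRF3, the factor present before induction, held 19.1, 17.6 and 28.9 CPM against 23.7, 28.8 and 25.9 CPM, and its groups overlapped (log2 fold change -0.25, SE 0.25). The list median was -0.12.

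The remaining lists had 0 calls in edgeR in either direction, with and without the block. The 11 tested regulators of RIG-I and MDA5 had a median log2 fold change of -0.15. Of them 3 were lower and 0 higher at an unadjusted p under 0.05, against 4.41% and 2.09% of all genes. The 16 signalling partners of MAVS and TRIF had a median of -0.38, with 4 lower and 0 higher at that p, and TRAF3, a ubiquitin ligase that links the adaptors to TBK1, was at -0.39 (SE 0.32) with overlapping groups. Of 14 other Toll-like receptors and their adaptors 8 were tested, with a median of 0.03 and with 2 lower and 0 higher at that p, and TLR7 and TLR8, which sense single-stranded RNA, had 0 counts in every library. MYD88, the adaptor of most Toll-like receptors but not of TLR3, held 26.0, 58.4 and 43.8 CPM against 76.9, 91.8 and 109.6 CPM (log2 fold change -1.12, SE 0.31, edgeR adjusted p 0.385). The 4 tested genes of cytosolic DNA and Z-nucleic acid sensing had a median of -1.31, all 4 of them lower at an unadjusted p under 0.05 (4.41% of all genes). Nothing is read from these counts, because the lists were drawn up with earlier results of these data known.

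The last lists hold relatives of PKR, ADAR and the helicases. The PKR partners and other eIF2 alpha kinases had a median of 0.15. Of them 0 were lower and 2 higher at an unadjusted p under 0.05, against 4.41% and 2.09% of all genes. EIF2AK3, the kinase of the endoplasmic reticulum, was at 0.67 (SE 0.25, edgeR adjusted p 0.707) while EIF2AK2 was at -0.61. The other double-stranded RNA binding proteins had a median of -0.07, with 0 lower and 0 higher at that p, and ADARB1, the second catalytically active editing enzyme, was at -0.32 (SE 0.26) with overlapping groups. The other DExD/H-box helicases had a median of 0.12, again with 0 lower and 0 higher. The difference between these relatives and the 10 genes was not tested.

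**Figure D5:**
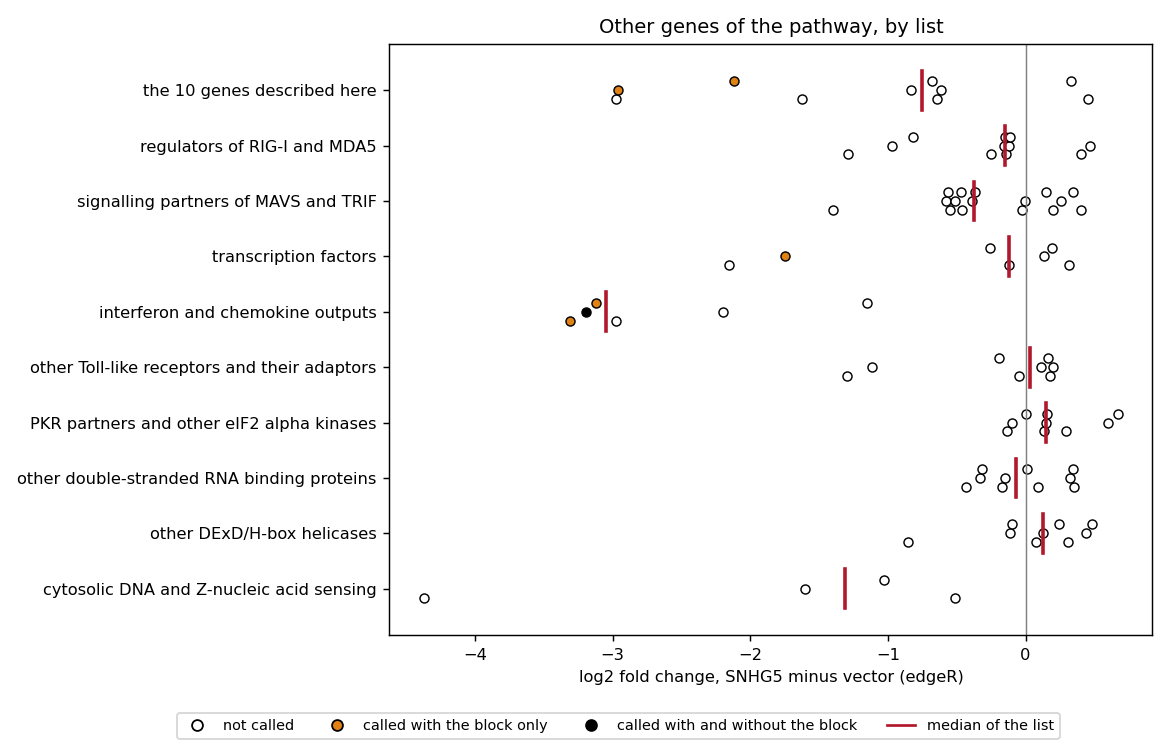
Fitted log2 fold change (horizontal axis, overexpression minus control, edgeR) of the 10 genes (top row) and of the tested genes of each pathway list, 1 point a gene, with list medians as red lines; orange points passed the adjusted threshold with the replicate block only and black points with and without it. Points of the interferon and chemokine outputs lie between -3.31 and -1.15, and those of the other double-stranded RNA binding proteins between -0.43 and 0.35.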

How the data were processed

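Paired-end libraries were made with Illumina's TruSeq RNA kit, which does not mark strand, per the labels' protocols. FastQC, HISAT2 and GRCh38 are named in the submitters' processing notes, while for the counter, its gene models and strandedness the record is silent (not given in the sources used here). For each library the authors deposited a whole-number count and an FPKM for every gene. The ratio of count to FPKM gave 1 length per gene in all libraries.

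The test on counts was that of edgeR 4.0.16 under R 4.3.3 (TMM, filterByExpr, robust quasi-likelihood test, two-sided, Benjamini-Hochberg over 15631 genes, threshold 0.05), fitted on the whole table. An SE is the log2 fold change divided by the square root of the F statistic. CPM use TMM-scaled totals, and log2 CPM a prior count of 2. A count of 3, the floor, is 0.175 to 0.218 CPM, depending on the library. Replicate counts differed beyond sampling noise (chi-square per degree of freedom 26.2 to 94.5 within groups). Exon unions and overlaps come from GENCODE 29, which matched 99.5% of the identifiers, and coordinates of genes are the deposited ones.

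As a check of pairing, log2 CPM centred on its group mean was correlated between libraries with one replicate number, which gave 0.35, 0.16 and 0.29, each above 0.1, and 1 pair of unlike number (overexpression 2 with control 1) also exceeded 0.1, at 0.12. The numbers were therefore read as pairs, from the data alone, since no label names a shared batch or day. By chi-square per degree of freedom, the nearest control had the same number for overexpression 1 (61.3) and overexpression 3 (41.3). Overexpression 2 was instead farther from control 2 (113.2) than from control 1 (56.5) or control 3 (94.9). From the control side, control 1 was farther from overexpression 1 (61.3) than from overexpression 2 (56.5) or overexpression 3 (54.8). Control 2 was nearer to overexpression 3 (108.9) than to overexpression 2 (113.2). Pair 3 alone was thus nearest from both sides, while pair 2 rests on its correlation alone. The blocked calls and pair differences depend on reading the numbers as pairs. The main fit has no block, and blocked calls are given beside it. Alternatives were that block, leaving out each library, RLE factors, no or a stricter filter, DESeq2 1.42.0 and limma-voom (limma 3.58.1), and, chosen after seeing the data, the removal of overexpression 3 and control 2 together. The members and lists were chosen with earlier results of these data known. Named genes are the 10 members, SNHG5, listed pathway genes past the threshold with or without the block, IRF3, IRF7, TRAF3, IFNB1, EIF2AK3, ADARB1 and MYD88 whatever their values, and the 3 nearest profiles of each member, of which 1 is not reported here. TLR7 and TLR8 were named after their values were seen.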

Additional observations from a re-analysis of the deposited data

How the results depend on the processing

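The 2-fold count of 4 genes ran from 3 to 6 over 13 alternatives and the count of 7 genes whose groups did not overlap from 7 to 9 over 8, both tried after the data were seen. The low of 3 came from the stricter filter, which left DHX58 untested. All of the 8 but the RLE factors only leave out libraries, which cannot make separated groups overlap. The count of 7 could thus fall only with the RLE factors, where it was 7. Genes called as lower over the whole table, 16 in edgeR, were 240 with DESeq2, 72 when no filter was used, 69 when the replicate block was added, 0 to 144 without 1 library and 388 without both overexpression 3 and control 2, a removal chosen after the data were seen. Genes called as higher, 4 in edgeR, numbered 22 with DESeq2, 0 to 20 without 1 library and 114 without both. Of the 10 genes, 0 in edgeR were called as lower, against 2 with the block, 2 with no filter, 4 with DESeq2, 0 to 3 without 1 library and 4 without both. Of the pathway genes, 1 in edgeR was called as lower, against 4 with the block, 5 with no filter, 9 with DESeq2, 0 to 8 without 1 library and 11 without both. Without overexpression 2, control 2 or control 3 edgeR called 0 genes in all, with 635, 871 and 742 genes at an unadjusted p under 0.05, and without overexpression 1 it called 1, while the upper ends come from leaving out overexpression 3. SNHG5 had a log2 fold change of 0.66, of 0.39 to 0.97 without 1 library and of 1.26 without both. That rise is fixed by the removal, since these were the lowest SNHG5 library of the overexpression group and the highest of the controls. MAVS, at 0.33, ran from -0.51 without overexpression 3 to 0.63 without overexpression 1 and was at -0.58 without both. Of 129 results for the 10 genes, 112 kept side and direction, 15 gained a call and 2, both of MAVS, reversed. Of the nearest profiles, 29 of 30 were the same with a prior count of 0.5. The block changed no other call than those given. The causes of these shifts were not tested. Genes with under 3 counts in a library, at 0.175 to 0.218 CPM, are below what this depth shows.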

Other observations

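Within the overexpression group, overexpression 3 stood at opposite ends for the receptors and the interferon genes. Overexpression 3 held the highest DDX58, IFIH1, DHX58 and TLR3 of its group and the lowest IFNB1 (0.815 CPM, against 1.70 and 1.97 CPM in overexpression 1 and 2) and IFNL1 (1.69 CPM, against 3.64 and 3.06 CPM). The interferon values there rest on few counts. IFNB1 held 28, 27 and 14 counts and IFNL1 60, 42 and 29 counts in overexpression 1, 2 and 3. Among the controls, control 2 held the highest IFNB1 (19.0 CPM) and IFNL1 (32.9 CPM) and the lowest DDX58 (463 CPM). IFIH1 was nearly equal in control 1 and 2 (258 and 254 CPM), and DHX58 and TLR3 were lowest in control 1 (10.7 and 28.3 CPM), so the receptors had no common order there. With 3 libraries a group, this order was not tested.

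As a share of each library's counts, the 10 genes summed to 0.198%, 0.137% and 0.282% in overexpression 1 to 3, against 0.390%, 0.278% and 0.458% in control 1 to 3, so that by this sum control 2 lay just below overexpression 3.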
